A study of Saccharomyces cerevisiae with 5 samples.

Results

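VTS1 and YIR016W are 2 genes of budding yeast: the gene that was deleted, and a gene whose mRNA is a proposed target of the Vts1 protein. Each was chosen by its symbol in the platform annotation and is read by 1 probe set that carries no other gene, out of 5656 genes with such a probe set (6504 probe sets). Transcripts were measured on 5 single-colour arrays of biotin-labelled total RNA. The wild type arrays (n = 2) came from strain BMA64, and the deletion arrays (n = 3) from BMA64 without VTS1. Both were grown in SD medium at 30 degrees and harvested at an OD600 of 0.4. The treatment field names a chemical transfection with VTS1 in the same words for all 5 arrays, so it does not separate the groups. The third deletion array lacks the strain tag (dvts1-1, dvts1-2) that the titles of the other two carry. The labels do not name the marker that replaced VTS1, whether the deletion arrays came from 1 clone, or whether any arrays shared a culture, so the p-values reflect array-to-array spread that may be technical.

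Vts1 belongs to the Smaug family of RNA-binding proteins, named after the Drosophila protein Smaug. Its SAM domain, at the C-terminal end, recognises the loop of a short hairpin in an mRNA, and the bound protein brings in the CCR4-NOT complex, which shortens the poly(A) tail, after which the cap is removed and the mRNA is degraded from its 5′ end. The gene's name comes from a genetic screen, in which extra copies of it suppressed a defect in the SNARE gene VTI1. YIR016W encodes a protein of unknown function, and YOL036W is its paralog from the ancient genome duplication of yeast. The question was which transcripts change when Vts1 is missing. The arrays give levels, and decay rates were not measured.

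VTS1 (YOR359W) was bright in both wild type arrays and lay below background in all 3 deletion arrays. Its signal, a linear intensity, was 4952.3 and 5079.9 in wild type cells against 19, 17.8 and 55 without VTS1. The background level of an array, taken from 28 control probe sets with no target in yeast RNA, was 166.7, 162.3 and 125.6 on the deletion arrays in the same order. The library whose title lacks the strain tag thus had the highest VTS1 signal of the 3 deletion arrays, and that signal was still only 43.8% of its array's background level. Against the background level, VTS1 was at least 33.4-fold lower in the deletion strain, which bounds what remained at 3.00% of the wild type. The limma adjusted p of 8.46e-09 belongs to a fit on signals raised to a floor of 50.1, and it depends on that floor. The log2 signals of the deletion arrays had an SD of 0.91 (n = 3) without the floor, while the residual SD of the fit was 0.07. The groups did not overlap, as the labels state, and the wild type arrays themselves differed by little: their log2 signals had an SD of 0.03 (n = 2). Because the deletion was made in this gene, the value checks the labels and is not a finding about the cells. Among the 6294 probe sets tested, 3.05% were called lower.

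YIR016W was higher in the cells without VTS1. Its signal was 2740.6 and 2216.6 in wild type cells against 4269, 4572.1 and 4953.4 without VTS1. Every deletion array was brighter than either wild type array, and the lowest exceeded the brighter wild type array by 1528.4 signal units, or 1.56-fold. The log2 change, deletion minus wild type, was 0.90 ± 0.14 (SE, n = 3 against 2), with a 95% interval of 0.59 to 1.20 (limma adjusted p = 0.00147). On the linear scale this is a 1.86-fold rise, with an interval of 1.51 to 2.30. The ratio of a deletion array to a wild type array ranged from 1.56 to 2.23 over the 6 pairs. Of all probe sets tested, 4.39% were called higher, and in 16.8% the deletion arrays all lay above the wild type arrays. In a whole culture, a larger share of cells making a transcript and more of it per cell cannot be told apart.

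The spread within the groups was smaller than the gap between them. The brighter wild type array exceeded the other by 1.24-fold, and the brightest deletion array exceeded the dimmest by 1.16-fold. The coefficient of variation was 14.9% among wild type arrays and 7.46% among deletion arrays. An exact two-sided permutation test over the 5 arrays, whose p is the smaller one-sided value doubled, gave p = 0.2. That is the smallest value this test can give with 3 arrays against 2. The adjusted p above thus rests on the spread shared across probe sets by the limma fit. The residual SD of YIR016W on the log2 scale was 0.15, equal to the value of 0.15 that the fit expects at its signal.

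**Figure D1:**
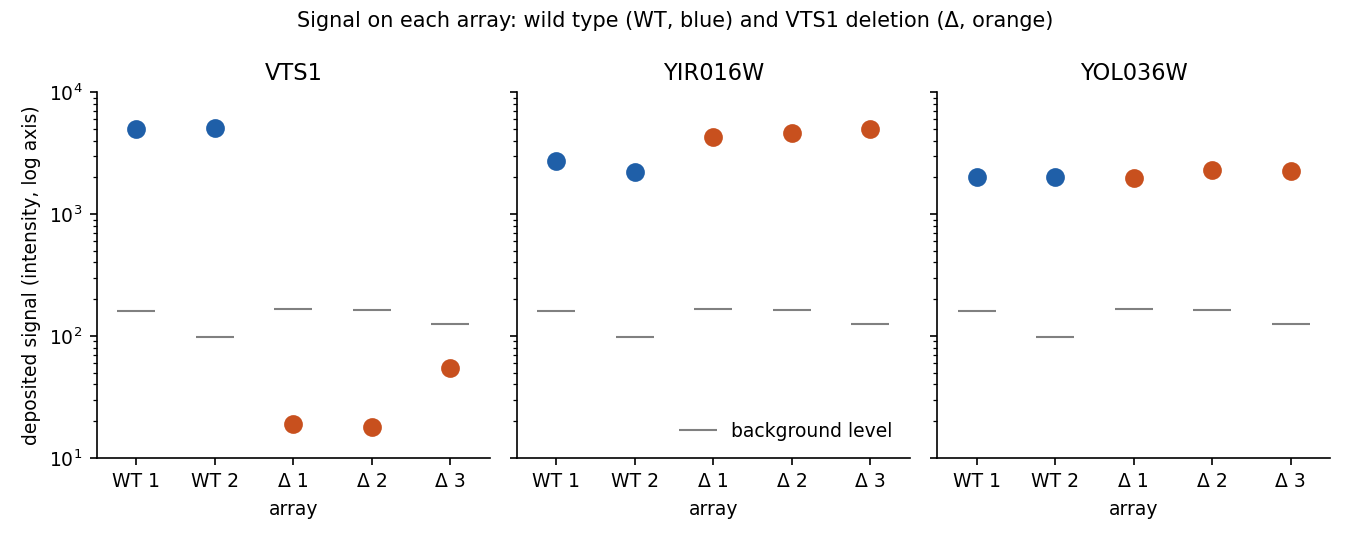
Deposited signal (log axis) of VTS1, YIR016W and the paralog YOL036W on each of the 5 arrays, with wild type in blue, deletion in orange and each array's background level as a grey bar. VTS1 drops below background on the 3 deletion arrays, YIR016W lies between 4269 and 4953.4 there against 2216.6 and 2740.6 in the wild type, and YOL036W stays between 1985.6 and 2307.3 on all 5.

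The rise of YIR016W was of middling size among those that passed the test. Of the 276 probe sets called higher, 138 had a larger log2 change. By p-value it stood at rank 132 of 6294, and by the size of the change in either direction at rank 242. VTS1 is given no rank, because its fitted change depends on the floor set under low signals. The median log2 change over all probe sets tested was -0.04 and the log2 change of YIR016W was 0.93 after quantile normalization and 0.92 after scaling to the median of the arrays. When the dim probe sets left out by the filter on mean signal were included, the YIR016W call was lost (adjusted p = 0.0759) at the same log2 change of 0.90.

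**Figure D2:**
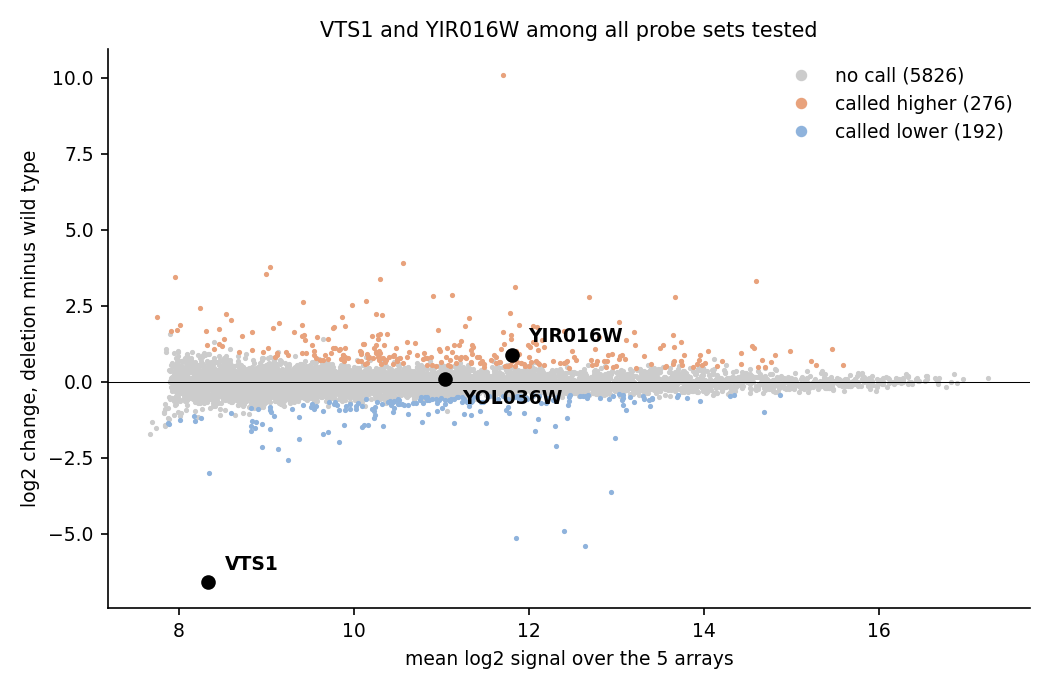
Log2 change, deletion minus wild type, of each of the 6294 probe sets tested against its mean log2 signal over the 5 arrays; orange points were called higher (276) and blue points lower (192). The height of the VTS1 point depends on the floor under low signals; YIR016W lies inside the cloud of called increases, and YOL036W lies near 0.

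The paralog of YIR016W gave no call. YOL036W had a signal of 2012.9 and 2026 in wild type cells against 1985.6, 2307.3 and 2257.4 without VTS1. Its groups overlapped, since the lowest of the 5 values was a deletion array. The log2 change was 0.11 ± 0.14 (SE, n = 3 against 2, limma adjusted p = 0.702), with a 95% interval of -0.19 to 0.41, or 0.876-fold to 1.33-fold. The upper end of that interval lies below the lower end of the interval of YIR016W.

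The log2 signal of YIR016W minus that of YOL036W was also compared within each array. This difference was 0.45 and 0.13 in wild type cells against 1.10, 0.99 and 1.13 without VTS1, and the groups did not overlap. Its mean was 0.79 higher in the deletion strain (SD 0.08, n = 3, against SD 0.22, n = 2), a 1.73-fold shift of the ratio. The same exact two-sided permutation test gave p = 0.2, again the smallest value it can give with these arrays. Leaving out any 1 array gave a shift of 0.63 to 0.95.

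The genes next to VTS1 on its chromosome gave no call. SNX3, a sorting nexin, had signals of 1549.1 and 1383.5 in wild type cells against 1308.6, 1222.6 and 1145.2 without VTS1 (log2 change -0.26 ± 0.15, limma adjusted p = 0.365). HAP5, part of the CCAAT-binding complex, is the nearest gene on that side, with a 95% interval of -0.26 to 0.55 for its log2 change. On the other side PDE2, a cyclic AMP phosphodiesterase, had an interval of -0.22 to 0.35. PRT1, a subunit of translation initiation factor 3, had signals of 9766.4 and 10525.8 against 9344.7, 8477.3 and 9452.6 (log2 change -0.16 ± 0.12, adjusted p = 0.479). The deletion arrays lay below the wild type arrays for SNX3 and PRT1, as for 21.7% of all probe sets tested, and overlapped them for HAP5 and PDE2.

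None of the genes next to YIR016W had a call either. On one side, VLD1 had a log2 change of -0.23 ± 0.27 (limma adjusted p = 0.671) and RPR2, a subunit of nuclear RNase P, one of 0.02 ± 0.29 (adjusted p = 0.979), a value whose sign changed when wild type array 2, or deletion array 1 or 3, was left out. On the other side the nearest gene is MET28, a cofactor of the activators of sulfur amino acid genes. Its signal was 204.9 and 193.9 in wild type cells against 261, 302.3 and 311.3 without VTS1. The groups did not overlap, but the log2 change of 0.54 ± 0.30 was not called (adjusted p = 0.339), and its 95% interval ran from -0.12 to 1.21. The wild type signals of MET28 lay under the filter of 250.3, so it was tested only because its deletion arrays were higher. YAP5, a transcription factor of the response to high iron, had a log2 change of 0.13 ± 0.23 (adjusted p = 0.783). The intervals of RPR2, MET28 and YAP5 reach above the lower end of the interval of YIR016W.

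**Figure D3:**
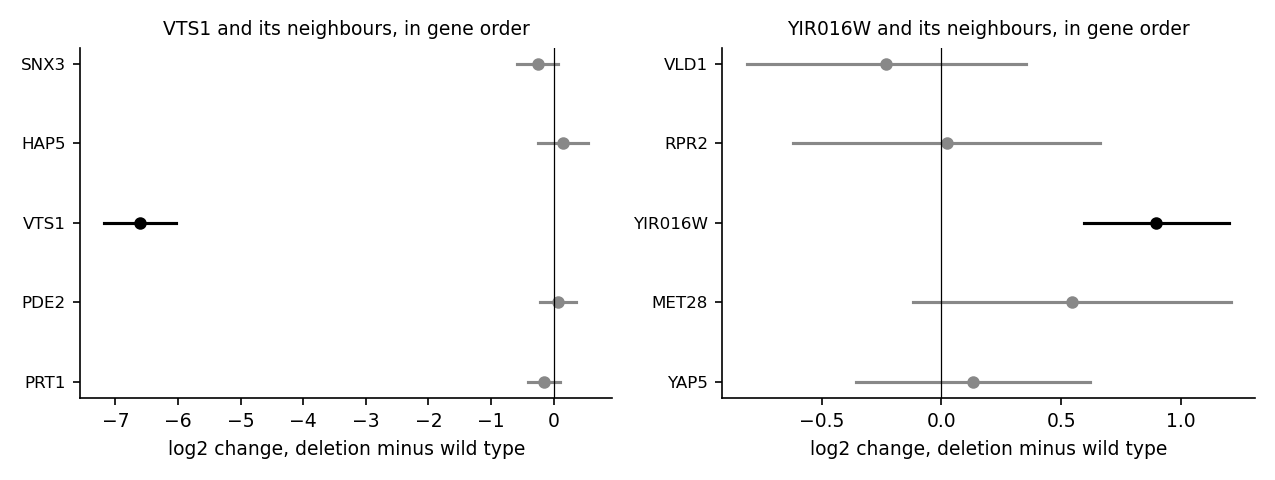
Fitted log2 change, deletion minus wild type, with its 95% interval for VTS1 (left) and YIR016W (right), in black, and the 2 nearest genes with a probe set on each side, in grey and in gene order. The point of VTS1 depends on the floor set under low signals and is no bound; all 8 neighbours have intervals that include 0.

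The mRNAs of the decay machinery that Vts1 works with gave no call. Of 32 measured genes of the CCR4-NOT complex, the PAN nuclease, poly(A) binding, decapping, 5′ decay and cap binding, 0 rose and 0 fell by limma, beside 4.39% and 3.05% of all probe sets tested. At an unadjusted p under 0.05, 0 were higher and 5 lower (CAF130, LSM2, LSM3, CDC33 and CAF20). CAF130, the weakest of these at an unadjusted limma p of 0.0463, stood at rank 1292 by p-value among the 6294 probe sets tested. Many probe sets thus pass this unadjusted threshold, which limits such counts here and in the lists below. The smallest adjusted p among the 32 was 0.0560, and all 32 had a 95% interval inside plus or minus the log2 change of YIR016W. Their median log2 change was -0.07, beside -0.04 over all probe sets. In 3 of the 32 all deletion arrays lay above the wild type arrays and in 10 below, beside 16.8% and 21.7% of all probe sets tested.

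All 9 subunits of the CCR4-NOT complex were measured, with log2 changes between -0.39 and 0.24. CCR4, one of its catalytic deadenylases, had signals of 3256.7 and 3765.5 in wild type cells against 2402.2, 2901.8 and 3465.6 without VTS1 (log2 change -0.28 ± 0.16, limma adjusted p = 0.363), and POP2, the other, had a log2 change of -0.08 ± 0.13 (adjusted p = 0.771). The groups overlapped for both. The smallest p-values of the complex belonged to CAF130, with a log2 change of -0.39 ± 0.18, and CAF40, with one of -0.30 ± 0.15 (adjusted p = 0.226 and 0.281), and for both the deletion arrays lay below the wild type arrays. PAN2, the catalytic subunit of the other deadenylase, had a log2 change of 0.32 ± 0.18, and PAB1, the poly(A)-binding protein, one of -0.11 ± 0.11 (adjusted p = 0.338 and 0.633).

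Among 15 measured genes of decapping and 5′ decay the log2 changes lay between -0.54 and 0.23. LSM2, a subunit of the Lsm rings that bind mRNA ends and U6 RNA, had signals of 3004.3 and 2696.2 in wild type cells against 1840.5, 2322.9 and 1757.2 without VTS1 (log2 change -0.54 ± 0.15, limma adjusted p = 0.0560). The groups did not overlap, and the call was gained when the arrays were scaled to their medians (adjusted p = 0.0445) or deletion replicate 2 was left out (adjusted p = 0.0484). LSM3, of the same rings, had a log2 change of -0.34 ± 0.15 (adjusted p = 0.222). DHH1, the helicase that activates decapping, and XRN1, the 5′ exonuclease, had log2 changes of 0.16 ± 0.12 and 0.01 ± 0.11 (adjusted p = 0.505 and 0.962). EDC1 was too dim to be tested, with a highest signal of 10.5.

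EAP1, a protein that binds the cap-binding factor eIF4E and has been linked to Vts1-dependent decay, had signals of 4645.9 and 5216.8 in wild type cells against 4284.6, 4616.8 and 4536.1 without VTS1 (log2 change -0.14 ± 0.12, limma adjusted p = 0.566). Its deletion arrays lay below its wild type arrays by a small margin. CDC33, which is eIF4E itself, had a log2 change of -0.34 ± 0.11, and CAF20, another protein that binds it, one of -0.30 ± 0.13 (adjusted p = 0.0955 and 0.202), also without overlap of the groups.

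**Figure D4:**
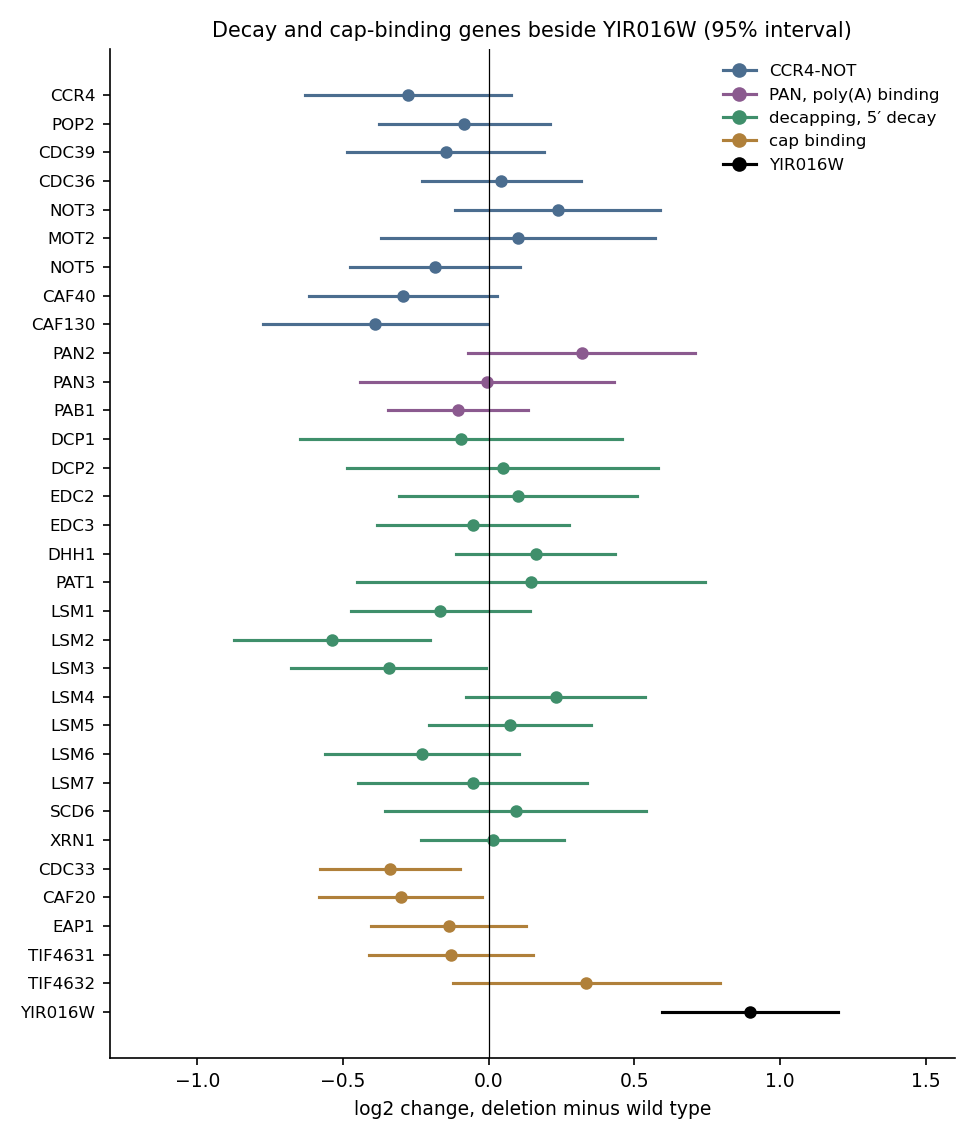
Log2 change, deletion minus wild type, with its 95% interval for the 32 measured genes of mRNA decay and cap binding, coloured by group, and for YIR016W (black, bottom). The intervals of all 32 lie inside plus or minus 0.90, the change of YIR016W, and LSM2 lies farthest from 0 among them.

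Other mRNA-binding proteins gave 1 call. Of 23 genes tested, PBP1 rose and 0 fell by limma (2 and 2 at an unadjusted p under 0.05), with a median log2 change of -0.09. A single call among 23 is close to the 4.39% of all probe sets called higher. RIM4 had a mean signal under the filter of 250.3 and was not tested. Its signals were 92.3 and 120.3 in wild type cells against 297.7, 178.4 and 183.1 without VTS1, and the groups did not overlap. PBP1, which binds the poly(A)-binding protein, had signals of 7252 and 6055.5 in wild type cells against 10533.4, 9049.9 and 8722.3 without VTS1, and the groups did not overlap. Its log2 change was 0.50 ± 0.13 (limma adjusted p = 0.0383), a call lost under 7 of 15 alternatives, among them leaving out wild type replicate 2 or any 1 deletion array (adjusted p between 0.0692 and 0.237). The measured genes of the PUF family, which also directs mRNAs to the CCR4-NOT complex, had no call, and PUF3 was too dim to be tested. MPT5, for example, lay at 10836.6 and 5199.8 against 6524.6, 8378.7 and 8720.6, where the wild type arrays differed more from each other than the groups did.

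VTI1, the SNARE whose defect gave VTS1 its name, had signals of 1620.6 and 1809.3 in wild type cells against 1789.7, 2082.2 and 1965.6 without VTS1 (log2 change 0.18 ± 0.14, limma adjusted p = 0.515). The groups overlapped. Of 9 measured SNAREs of the Golgi, endosome and vacuole, 0 rose and 0 fell by limma, beside 4.39% and 3.05% of all probe sets. At an unadjusted p under 0.05, 0 were higher and 1 lower, YKT6, with a log2 change of -0.29 ± 0.12 (adjusted p = 0.202).

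YIR016W is annotated in yeast databases as a gene under Ume6, a repressor of early meiotic genes in growing cells. UME6 had signals of 793.7 and 964.3 in wild type cells against 855.4, 991.3 and 786.6 without VTS1 (log2 change -0.0019 ± 0.18, limma adjusted p = 0.999), and of the 5 regulators measured, with SIN3, RPD3, IME1 and RIM11, 0 rose and 0 fell by limma (0 and 1 at an unadjusted p under 0.05), beside 4.39% and 3.05% of all probe sets. IME1, the inducer of meiosis, had a log2 change of -0.85 ± 0.33 (adjusted p = 0.16), with all deletion arrays below the wild type arrays. RIM11, a kinase that acts on Ume6 and Ime1, had one of 0.34 ± 0.20 (adjusted p = 0.366). Of 16 early meiotic genes, 15 were too dim to be tested and 6 lay at or below background on all 5 arrays. The highest signal of the 15 on any array was 263.1, that of HFM1. HFM1 had signals of 167.5 and 144.2 in wild type cells against 263.1, 217.4 and 198.7 without VTS1, and its groups did not overlap. The groups overlapped for the rest of the 15. RED1, the one tested, had a log2 change of -0.26 ± 0.25 (adjusted p = 0.608), whose sign changed without wild type replicate 1.

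Stress genes rose on the same arrays as YIR016W. Of 29 measured genes of a general stress list, 25 rose and 0 fell (26 and 0 at an unadjusted p under 0.05), beside 4.39% and 3.05% of all probe sets tested, with a median log2 change of 1.80, and 23 of the 29 had a larger log2 change than YIR016W. HSP12, a small membrane-associated stress protein, had signals of 6874.8 and 5680.1 in wild type cells against 60470.5, 62829.5 and 63627.9 without VTS1. The glycoprotein gene YGP1, the hexokinase gene HXK1 and SOL4, of the pentose phosphate pathway, had log2 changes of 2.80 ± 0.12, 2.81 ± 0.13 and 3.90 ± 0.20 (limma adjusted p = 1.82e-08, 4.79e-08 and 1.17e-07). The part of this shift in the rise of YIR016W was not tested. With dim probe sets included in the test, the count of 25 became 10. GPH1, CTT1, XBP1 and ALD3 had wild type means of 109.7, 116.95, 45.25 and 169.05, under the filter of 250.3. They were tested only because their deletion arrays were bright, so they could enter the count only as rises. The list was written with earlier results of these data known.

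Several genes had a profile close to that of YIR016W over the 5 arrays, of which all but ROM1 and GCN20 were called higher. With each probe set centred on its own mean, the 5 single-gene probe sets with the smallest root mean square difference from YIR016W were those of ROM1, a Rho1 exchange factor (0.06), ZTA1, a quinone reductase (0.07), MPC3, a subunit of the mitochondrial pyruvate carrier (0.07), COQ21 (0.07) and TWF1, the actin-binding protein twinfilin (0.08). ROM1 had signals of 225.4 and 164 against 320.4, 334.3 and 390.9, and its log2 change of 0.85 ± 0.30 was not called (limma adjusted p = 0.122). ROM1 passed the filter on mean signal only through its deletion arrays. TWF1 had signals of 2880.1 and 2324.9 against 4986.9, 4716.8 and 4913.5, a log2 change of 0.91 ± 0.13 (adjusted p = 0.000948). ZTA1, MPC3 and COQ21 rose by 0.96 ± 0.19, 0.81 ± 0.15 and 0.83 ± 0.14 on the log2 scale (adjusted p = 0.0083, 0.00428 and 0.00305). With dim probe sets included, these calls and that of TWF1 were lost (adjusted p between 0.0575 and 0.127). The call of ZTA1 was also lost without wild type array 2 (0.0682) or with a block on replicate number (0.0796), and that of MPC3 with the block (0.052). In each of these 5 genes, as in YIR016W, wild type replicate 2 was the lowest array. The 5 were chosen for likeness to YIR016W on these same arrays, so the shared low array and the rises follow from that choice.

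By Pearson correlation of log2 signal over the 5 arrays, which ignores the size of the change, the nearest were SPI1, a cell wall protein made in stress (r = 0.9996), LSC2, a subunit of succinyl-CoA ligase (r = 0.9986), ATP5, a subunit of ATP synthase (r = 0.9974), GCN20, a translation regulator (r = 0.9958), and GUT2, the mitochondrial glycerol-3-phosphate dehydrogenase (r = 0.9958). Their log2 changes were 1.80 ± 0.18, 1.13 ± 0.15, 0.65 ± 0.15, 0.27 ± 0.12 and 1.08 ± 0.17, of which that of GCN20 was not called (limma adjusted p = 0.197). The call of ATP5 was lost under 6 of 15 alternatives, among them leaving out wild type array 2 (adjusted p = 0.156), deletion array 2 (0.106) or deletion array 3 (0.0784), and those of SPI1, LSC2 and GUT2 were lost only with dim probe sets included. SPI1 is also a member of the stress list. Of 5384 single-gene probe sets, 25 correlated with YIR016W above 0.99. The points are 5 arrays in 2 groups that share scaling and RNA. A gene that is higher in the deletion arrays by a gap well beyond its spread thus correlates strongly with YIR016W, and the values are a description.

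The genes named as nearest to VTS1 have to be read with its limit: its 3 deletion signals were below background, and those of deletion arrays 1 and 2 were raised to the floor of 50.1, so the distance and correlation of any gene from VTS1 depend on that floor and neither is given here. By root mean square difference the nearest 5 probe sets were that of ZPS1, a surface protein induced by low zinc, 3 of the zinc transporter gene ZRT1, and that of HSP30, a plasma membrane heat shock protein. ZPS1 had signals of 55309.9 and 65978.8 against 1302.7, 1473.5 and 1531.9, and unlike VTS1 it stayed above the background level on the deletion arrays. By correlation the nearest were VHR1, a transcription factor of the response to low biotin, ZRT1, ZPS1, TIR4, a cell wall mannoprotein, and PLB2, a phospholipase B. VHR1 lay at 3721.7 and 3721.5 against 2314, 2312.6 and 2344.9, a log2 change of -0.68 ± 0.12 (limma adjusted p = 0.00487), while TIR4 and PLB2 had log2 changes of -1.06 ± 0.14 and -1.33 ± 0.14 (adjusted p = 0.000377 and 7.43e-05).

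**Figure D5:**
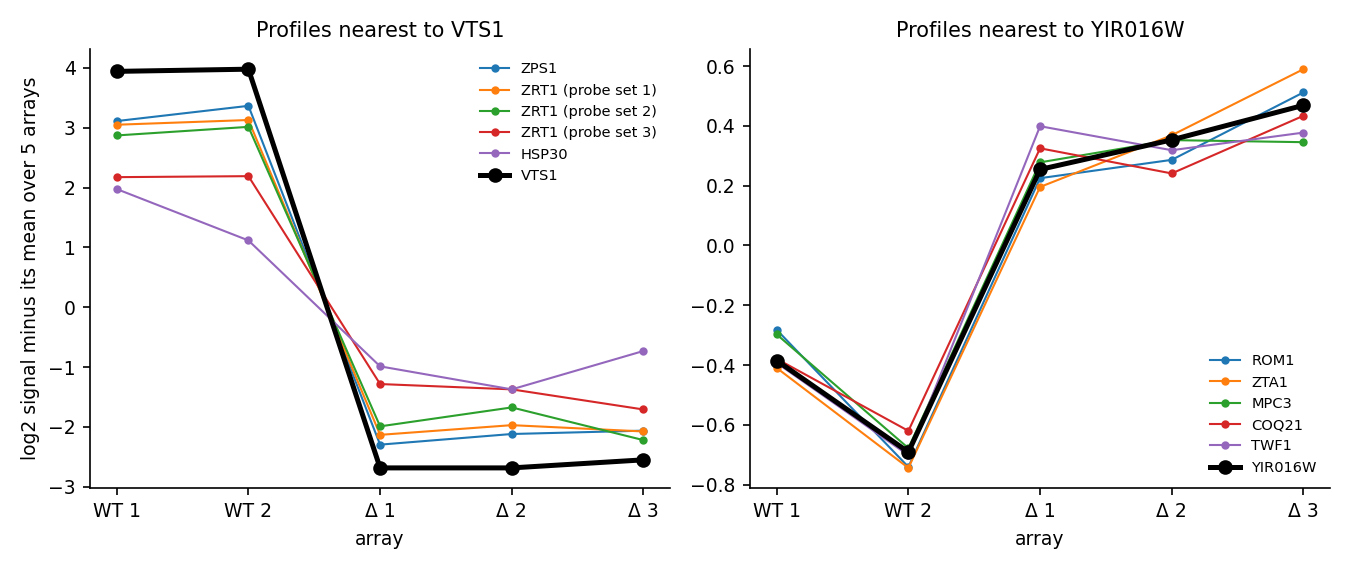
Log2 signal on each array minus the probe set's own mean over the 5 arrays, for the probe sets with the smallest root mean square difference from VTS1 (left) and from YIR016W (right), with the member in black; lines join the values of 1 probe set, and the 2 panels have different vertical scales. The genes near YIR016W differ from it by 0.06 to 0.08; the curve of VTS1 on the deletion arrays is set largely by the floor of 50.1, so distances from it are not comparable.

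The cells were checked against markers of mating type. The a-cell gene STE2 had signals from 4768.1 to 5451.2 on the 5 arrays, and of 6 a-cell genes 0 rose and 1, AGA2, fell (2 and 2 at an unadjusted p under 0.05, and 4.39% and 3.05% of all probe sets called), from 3456.9 and 3203 to 2258.8, 2452.8 and 2420.6 (log2 change -0.49 ± 0.13, limma adjusted p = 0.0393), a call lost when any 1 array was left out (adjusted p up to 0.151). Of 4 alpha-cell genes, 3 had a mean signal under the filter of 250.3 and were not tested. One of them, MF(ALPHA)1, had signals of 326.2 and 262.2 in wild type cells against 116.3, 178.5 and 108.3 without VTS1. Its groups did not overlap, and only its low deletion arrays took it under the filter, so a fall could not be called. The groups overlapped for STE3 and MF(ALPHA)2. SAG1, which was tested, had signals from 371.8 to 618.9 on the 5 arrays and a log2 change of 0.15 ± 0.27 (limma adjusted p = 0.785). On each array, 74.2% to 83% of probe sets exceeded background.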

How the data were processed

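The deposited values are MAS5 signal intensity values on a linear scale, as the submitters' processing notes name that program. No source used here gives its version or scaling target. The values had been scaled per array before deposit (trimmed mean of 2502.47 to 2502.68, with 2% left out at each end) and were not scaled again, so a change in total mRNA per cell would not be seen.

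Of 9335 probe sets, 60 controls were left out. Signals under 50.1 were raised to that floor, log2 was taken, and the 6294 probe sets with a mean over the 5 arrays of at least 250.3 were tested with limma 3.58.1 in R 4.3.3 (lmFit, eBayes with a trend of variance on mean signal, group as the only term, 3 residual and 9.02 prior degrees of freedom). Two-sided p-values were adjusted over all 6294 (Benjamini-Hochberg), and a call is an adjusted p under 0.05. Background was set per array at percentile 95 of 28 controls without a target. The number of arrays limits the precision.

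The members, the 11 gene lists and the tests were chosen with earlier results of these data known. A gene was read from its brightest single-gene probe set. All 6504 gene identifiers of single-gene probe sets were found in the RefSeq table of assembly R64, which also gave gene order. Genes named were the members, YOL036W, the 2 nearest measured genes on each side, up to 4 called genes with the smallest p per list (the 2 with the smallest p where none was called), and for each member the 5 nearest probe sets by each measure of likeness. CCR4, POP2, DHH1, XRN1, EAP1, EDC1, UME6, MPT5 and STE2 are outside the rule, picked with their values in view. The planned check of YIR016W and YOL036W in a protein table was not run, and their kinship is background knowledge. The alternatives were other scalings, floors, filters, variance models, array weights, a block on replicate number, and each array left out. Deviations of arrays with the same replicate number correlated at -0.066 and -0.074.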

Additional observations from a re-analysis of the deposited data

How the results depend on the processing

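VTS1 kept its call under all 15 alternatives. YIR016W kept its direction in all 15 and its call in 14, with log2 changes of 0.74 to 1.05. Without the filter on dim probe sets its adjusted p was 0.0759 at 0.90, where the prior degrees of freedom fell from 9.02 to 1.09. The difference between YIR016W and YOL036W kept its direction in the 10 alternatives run (0.63 to 0.95).

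The 276 probe sets called higher became 54 without the filter, and 176 to 320 with 1 array left out. The 192 called lower became 51 without the filter, 106 without a variance trend, and 94 to 161 with 1 array left out. Of the lists, general stress had 10 called higher without the filter. The mRNA-binding list had 0 called higher without the filter, without a variance trend or with the replicate block, and 0 to 1 with 1 array left out. The decapping list had 1 called lower with scaling to the median, and 0 to 1 with 1 array left out. The a-cell list had 1 called higher and 0 lower with quantile normalization, 0 lower without the filter, without a variance trend or with the replicate block, and 0 with any 1 array left out.

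The replicate block, fitted with group, gave 149 probe sets higher and 69 lower, with log2 changes of -6.65 for VTS1 and 0.84 for YIR016W (limma adjusted p = 0.0345). Replicate number 3 exists only in the deletion group, so the block takes deletion array 3 out of the comparison. Both log2 changes equal those found without that array. Deviations of same-numbered arrays correlated at -0.066 and -0.074. The deviations of the wild type arrays from their own mean mirror each other, so deletion array 1 gave -0.066 with one and 0.066 with the other. These correlations thus cannot decide whether same-numbered arrays shared a culture.

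Of 47 other named probe sets, 31 kept call and direction in every alternative that tested them. Of the rest, 11 lost a call and 2 gained one in at least 1 alternative, and 3 changed sign, none of them called. MET28, near the filter, was tested in 12 of the 15 alternatives. RPR2 was at -0.0795 with array weights, -0.0585 with the replicate block and -0.0922 to 0.137 with 1 array left out. With 1 array left out RED1 was at -0.608 to 0.0918 and SAG1 at -0.177 to 0.486.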
